A study of Mus musculus with 20 samples.

Results

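RNA levels of 7 genes of inflammasome signalling and regulated cell death were followed through 20 RNA-seq libraries of mouse embryonic fibroblasts. The genes were Nlrp3, Casp1, Casp4, Casp8, Ripk1, Ripk3 and Mlkl. They were chosen by symbol, with no measured value in the rule, but with earlier results of these data known. Of these genes, 7 of 7 were found among the 45706 genes of the count table. All 7 also passed the filter on low counts, which kept 14023 genes.

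The cells were primary fibroblasts from C57BL/6 embryos, and all of them carried the crel-/- genotype, which removes the NF-kB subunit c-Rel encoded by Rel. The control genotype was crel-/- alone. The other genotype, called the knock-in here, was crel-/- with the RelA-TA-KI allele of Rela, the gene of the NF-kB subunit RelA. What TA abbreviates, and which residues it changes, is not stated in the labels. Serum-starved cells were left unstimulated (0 h) or were stimulated for 0.5, 1 or 3 h with IL-1b at 10 ng/ml, LPS at 100 ng/ml or TNF at 10 ng/ml. Each genotype, agent and time was represented by 1 library, so 10 libraries of each genotype formed 10 matched pairs. The labels name neither separate cultures nor separate embryos. The p-values therefore measure the spread between these libraries, which may be partly technical.

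Inflammasomes are cytosolic complexes that activate inflammatory caspases. NLRP3 is the sensor of the best studied of them. Its RNA is known to be low in resting macrophages and to be raised by NF-kB signalling, a step called priming. Caspase-1, the product of Casp1, processes the precursors of the cytokines interleukin 1 beta and interleukin 18 and cleaves gasdermin D. The product of mouse Casp4, also called caspase-11, binds LPS inside the cell and cleaves gasdermin D as well, and both paths can end in the lytic death called pyroptosis. Downstream of death receptors, RIPK1 and caspase-8 decide between survival, apoptosis and necroptosis. Necroptosis runs through RIPK3, which phosphorylates the pore-forming pseudokinase MLKL. Fibroblasts respond to all 3 agents through NF-kB, and LPS through TLR4 also raises type I interferon.

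Total counts per library were between 9248151 and 12574135. Levels are given in CPM (counts per 1000000 of the library total after TMM scaling, a correction for composition). The detection floor was set at 3 counts, equal to 0.222 to 0.435 CPM. Intervals and floors cover counting error only. Scaling factors were 0.723 and 0.732 in the LPS 3 h libraries and at or above 0.979 in the others. Rel reads were present in every library, at 16.2 to 62.0 CPM with the control genotype and 16.5 to 34.9 CPM with the knock-in. No library had an intact Rel gene for comparison, and the counts are not split by exon, so they check neither allele. Rela ranged from 72.7 to 354 CPM in crel-/- cells and from 75.9 to 196 CPM in the knock-in. The 11 fibroblast markers summed to between 44991 and 70597 CPM. All 16 macrophage markers also had counts in every library, and their sum lay between 2873 and 5944 CPM, while endothelial, epithelial and neural markers each summed to less than 77 CPM. In such bulk samples, fewer cells of a type and less RNA per cell cannot be told apart.

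Set side by side per length of exon (RPKM, CPM for each 1000 bases of exon), the median levels over the 20 libraries ran from 14.0 for Ripk3 and 13.7 for Casp8 through 9.31 for Ripk1, 6.45 for Casp1, 4.26 for Mlkl and 3.64 for Nlrp3 to 1.72 for Casp4. Ranges over the libraries overlapped between all neighbours in this order. The order did not hold within single libraries: Nlrp3 reached 81.3 RPKM in crel-/- cells after LPS for 3 h, the highest length-scaled level of the 7 genes in any library. Ripk3 moved least, between 9.92 and 19.9 RPKM.

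**Figure D1:**
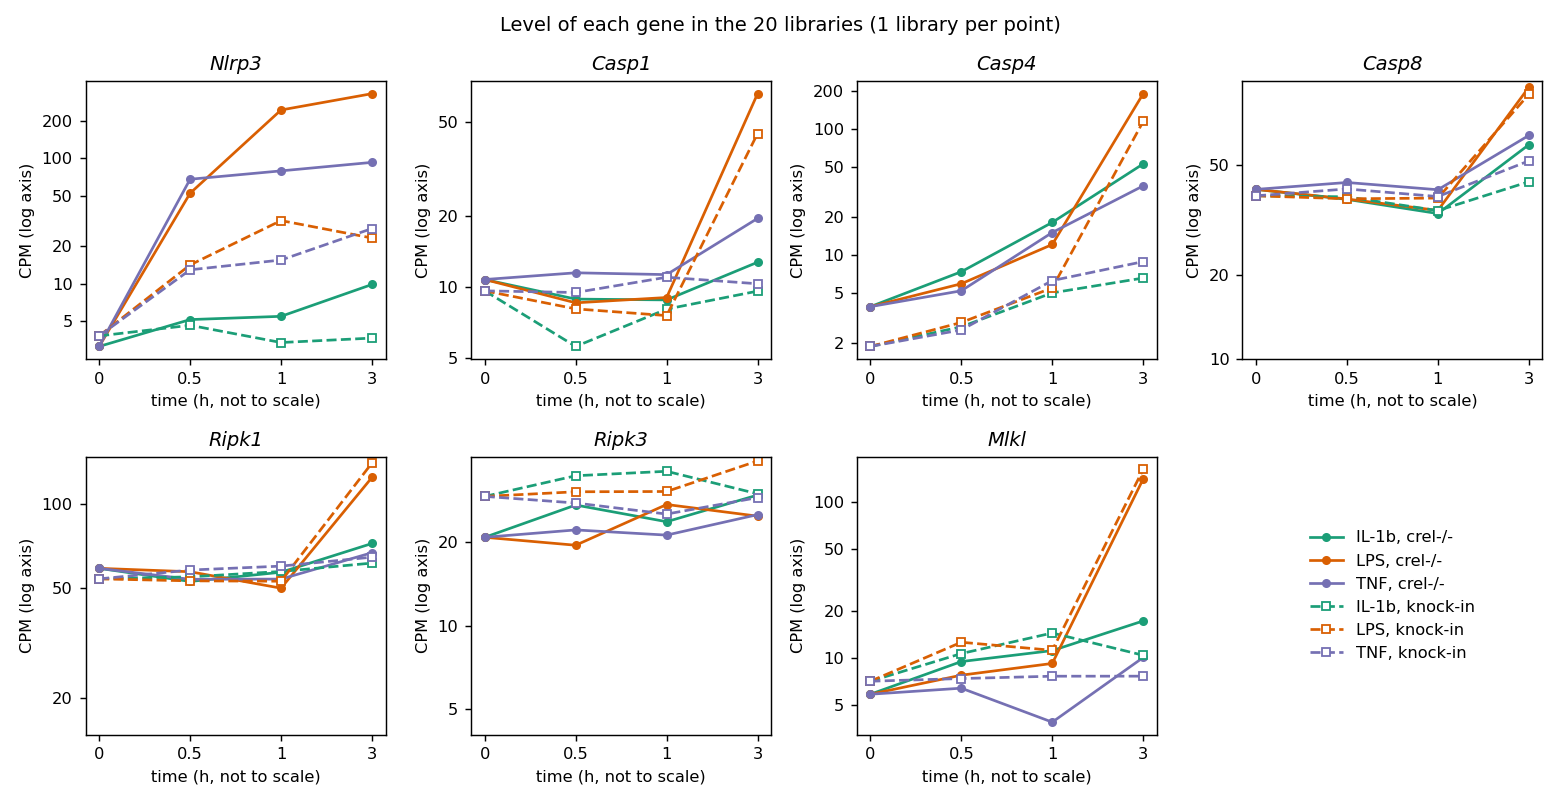
Level of each of the 7 genes in CPM (log axis) against time in h, with 1 library per point, agents by colour, crel-/- as filled circles with solid lines and the knock-in as open squares with dashed lines. Nlrp3 reached 330 CPM in crel-/- and 23.1 CPM in knock-in cells after LPS for 3 h, while Mlkl reached 140 CPM in crel-/- and 161 CPM in knock-in cells.

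The first question was how the genotypes differed. In the knock-in, Nlrp3 and Casp4 were several-fold lower, Casp1 was slightly lower and Ripk3 was slightly higher, and no difference passed the test for Casp8, Ripk1 and Mlkl. Genotypes were compared over the 10 matched pairs in a model with genotype and condition (edgeR's quasi-likelihood test, Benjamini-Hochberg adjustment over all 14023 genes, called at an adjusted p under 0.05). Of the 7 genes, 3 were called lower and 1 higher in the knock-in. Over all genes tested, 7.81% were called lower and 7.99% higher. The median log2 difference (knock-in minus crel-/-) of the 7 genes was -0.09, beside 0.0023 over all genes.

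Nlrp3 (ENSMUSG00000032691.12, mm10, chromosome 11, 59541568 to 59566956, plus strand) started near the bottom of the measured range in both genotypes, at 3.14 CPM in crel-/- and 3.82 CPM in knock-in cells. In crel-/- cells, LPS brought it to 52.7, 244 and 330 CPM at 0.5, 1 and 3 h. TNF brought it to 68.2, 79.6 and 93.1 CPM over the same times. Most of the rise under TNF was thus present at 0.5 h, whereas under LPS the level rose further from 0.5 to 1 h. The step from 1 to 3 h of LPS depended on the scaling. Nlrp3 counts there were 2505 and 2275, in library totals of 10111428 and 9550464 with scaling factors of 1.01 and 0.723. With IL-1b the crel-/- levels were 5.16, 5.47 and 9.84 CPM, below every LPS and TNF library of that genotype.

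In the knock-in, Nlrp3 levels under LPS were 14.1, 31.9 and 23.1 CPM at 0.5, 1 and 3 h. Under TNF they were 12.9, 15.4 and 27.5 CPM. Under IL-1b they were 4.64, 3.38 and 3.67 CPM, all within 1 CPM of the unstimulated level. The highest knock-in level, 31.9 CPM, lay below the lowest crel-/- level under LPS or TNF, 52.7 CPM, so the genotypes did not overlap under these 2 agents. The ratio of crel-/- to knock-in grew with time under LPS, from 3.74-fold (95% counting interval 3.11 to 4.51) at 0.5 h to 7.66-fold (6.79 to 8.66) at 1 h and 14.3-fold (12.3 to 16.6) at 3 h. Under TNF the ratio was 5.30-fold (4.46 to 6.33), 5.16-fold (4.39 to 6.09) and 3.38-fold (2.96 to 3.86) at the same times. At 0 h the knock-in was the higher of the pair, and the interval of that ratio, 0.522 to 1.29, included equality. Over the 10 pairs the fitted log2 difference was -2.10 (SE 0.36, adjusted p 0.0034 by edgeR's quasi-likelihood test), with the knock-in lower in 9 of 10 pairs.

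Whether the Nlrp3 difference depended on the agent was tested in a model with a genotype term per agent, which was added after the levels had been seen. The difference under LPS minus that under IL-1b was -2.14 (SE 0.61) and the adjusted p was 1.0 in edgeR. That model called 0 genes for this contrast, with 572 of 14023 at an unadjusted p under 0.05. DESeq2 gave the same size, -2.14, with an adjusted p of 0.0028. Limma-voom, like edgeR, did not call it.

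The 3 genes with the highest correlation with Nlrp3 in log2 CPM over the 20 libraries were Il1b (r = 0.93), which encodes the interleukin 1 beta precursor, Clec4e (r = 0.93), which encodes a C-type lectin receptor of myeloid cells, and Tnf (r = 0.90). These correlations share libraries and depth and are descriptions only. Il1b went from 0.0806 to 671 CPM in crel-/- cells and from 0 to 34.6 CPM in the knock-in. Clec4e ranged from 0.645 to 263 CPM in crel-/- cells and from 0.0889 to 13.3 CPM in the knock-in.

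Since Nlrp3, Il1b and Clec4e are also expressed by macrophages, the macrophage markers of each group are given beside them. Their sum was 5283 CPM in crel-/- and 4572 CPM in knock-in cells at 0 h. Under LPS its range was 2873 to 4348 CPM in crel-/- cells, beside 2912 to 3257 CPM in the knock-in. Under TNF these ranges were 5185 to 5944 CPM and 4720 to 5602 CPM, and under IL-1b they were 3626 to 4212 CPM and 2956 to 3598 CPM. In every pair except LPS at 1 h the sum was lower in the knock-in. In the genotype comparison, 3 of 16 macrophage markers were called lower and 0 higher, beside 7.81% and 7.99% of all genes, with a median log2 difference of -0.11. How much of each Nlrp3 level came from macrophages was not tested.

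**Figure D2:**
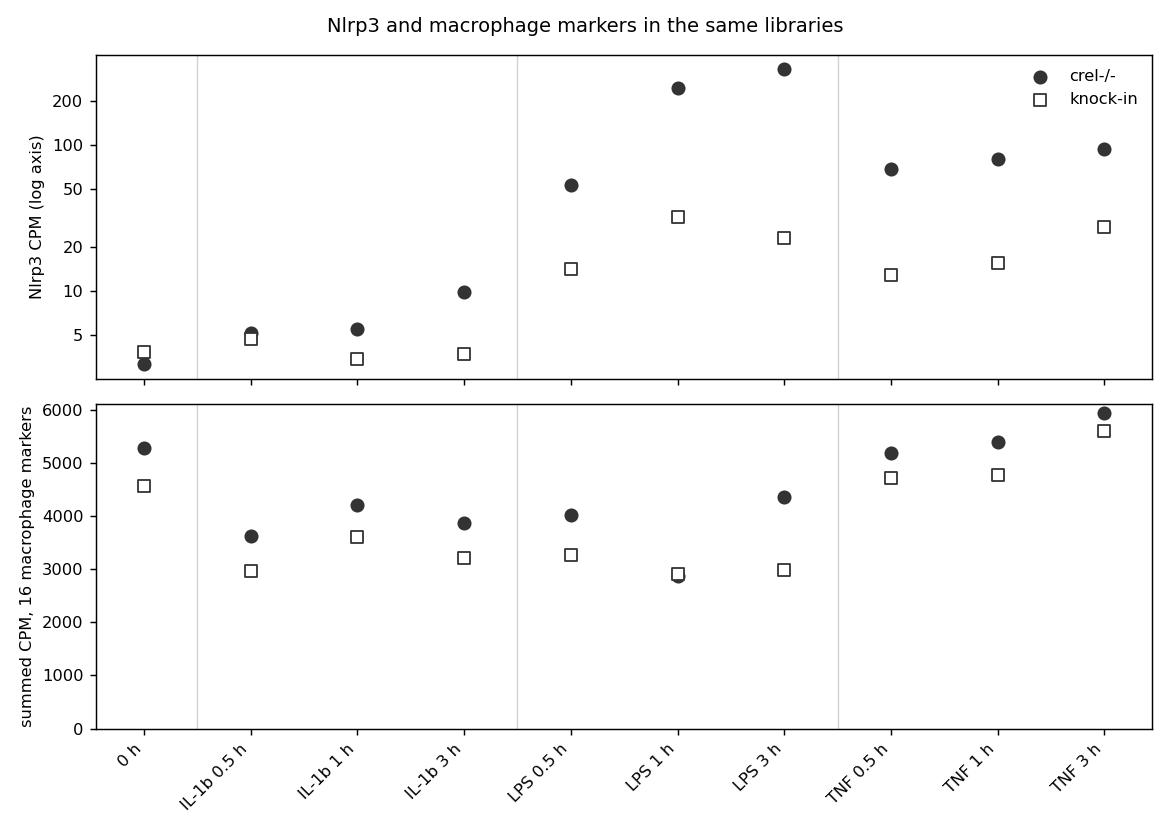
Nlrp3 in CPM (upper panel, log axis) and the summed CPM of the 16 macrophage markers (lower panel, linear axis from 0) in each of the 20 libraries, with crel-/- as filled circles and the knock-in as open squares. Nlrp3 spans 3.14 to 330 CPM, while the marker sum stays between 2873 and 5944 CPM and is highest under TNF.

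Casp4 (ENSMUSG00000033538.11, mm10, chromosome 9, 5308828 to 5336783, plus strand) was lower in the knock-in in 10 of 10 pairs, with a fitted log2 difference of -1.51 (SE 0.22, adjusted p 9.5e-04 by edgeR's quasi-likelihood test). The difference was already there without stimulation, at 3.87 CPM in crel-/- and 1.87 CPM in knock-in cells, a ratio of 2.07-fold (95% counting interval 1.23 to 3.61). In crel-/- cells, IL-1b raised Casp4 through 7.34 and 18.1 to 52.9 CPM at 0.5, 1 and 3 h. TNF led through 5.18 and 15.0 to 35.4 CPM, and LPS through 5.89 and 12.1 to 192 CPM. Levels thus stood close together under the 3 agents up to 1 h and parted at 3 h, when LPS was far ahead.

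In knock-in cells the Casp4 courses were flatter under 2 of the agents. IL-1b gave 2.68, 4.98 and 6.54 CPM, and TNF gave 2.53, 6.24 and 8.83 CPM. LPS gave 2.90, 5.46 and 115 CPM. At 3 h the crel-/- level was 8.10-fold (6.41 to 10.3) the knock-in level under IL-1b and 4.01-fold (3.19 to 5.08) under TNF, but 1.66-fold (1.53 to 1.81) under LPS. From 0 h to 3 h, Casp4 rose 13.7-fold (10.2 to 18.8) under IL-1b in crel-/- and 3.50-fold (2.17 to 5.89) in knock-in cells. Under LPS the same folds were 49.5 (37.1 to 67.5) and 61.7 (40.5 to 99.0), and their intervals overlapped.

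That the Casp4 difference was smaller under LPS at 3 h was tested with a term added after the levels had been seen. The genotype difference at LPS 3 h was 1.79 log2 units above that at IL-1b and TNF 3 h (SE 0.29, adjusted p 0.0142 by edgeR's quasi-likelihood test). The LPS side of this test is 1 pair of libraries. It was called for 0.67% of all genes (38 higher and 56 lower) and for 1 of the 7, Casp4. Without the TNF 3 h pair 236 genes were called higher and 132 lower, and without the IL-1b 3 h pair 58 and 102. For Nlrp3 the same contrast had the opposite sign, -2.16 (SE 0.98, adjusted p 0.58). Among the 10 pairs, LPS at 3 h thus had the widest genotype ratio of Nlrp3 and the narrowest of Casp4. In the model with a genotype term per agent, which takes all times of an agent together, no Casp4 contrast was called. LPS minus IL-1b was 1.40 (SE 0.39, adjusted p 0.99), TNF minus IL-1b 0.75 (SE 0.40, adjusted p 0.63) and LPS minus TNF 0.65 (SE 0.38, adjusted p 0.90), by edgeR's quasi-likelihood test.

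The deposited counts carry no binding data, but the start-site windows of these 2 genes show the letters that NF-kB recognises. RefSeq promoter windows of 300 bases, 250 before to 50 after a start site (GRCm38.p6, the patch release of mm10), were matched for 7 of 7 genes, with 10 windows in all. Both strands were searched for the NF-kB kappaB consensus, which 8.46% of 32851 mouse promoter windows hold. The Casp4 window chr9:5308599-5308898 holds 2 matches, at -93 to -83 and at -39 to -30 from the start site, and the upstream Nlrp3 window chr11:59541319-59541618 holds 1, at -186 to -177. The first Casp4 match is 11 bases long because overlapping matches were joined. The windows are printed 5′ to 3′ on the plus strand, the strand of both genes, with kappaB matches in capitals, since Casp4 and Nlrp3 are the members with the largest genotype differences.
Casp4: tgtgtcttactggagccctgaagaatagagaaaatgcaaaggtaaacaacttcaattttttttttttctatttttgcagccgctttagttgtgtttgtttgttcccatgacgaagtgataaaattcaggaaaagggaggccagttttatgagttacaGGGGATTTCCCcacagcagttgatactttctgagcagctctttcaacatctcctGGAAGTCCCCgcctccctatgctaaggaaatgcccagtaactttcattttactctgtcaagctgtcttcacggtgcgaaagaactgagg
Nlrp3: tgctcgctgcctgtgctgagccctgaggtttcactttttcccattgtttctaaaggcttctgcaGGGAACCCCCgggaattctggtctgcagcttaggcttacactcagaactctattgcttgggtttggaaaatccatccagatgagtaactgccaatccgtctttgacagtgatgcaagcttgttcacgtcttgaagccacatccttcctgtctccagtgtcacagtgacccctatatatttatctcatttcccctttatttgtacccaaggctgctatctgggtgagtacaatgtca
A match is a description of letters and no evidence of binding. The other Nlrp3 window and the windows of Casp1, Casp8, Ripk1, Ripk3 and Mlkl hold no kappaB match, and the other Casp4 window starts 11 bases further along and holds the same 2.

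The genes most like Casp4 over the 20 libraries were Ccl5 (r = 0.97), a chemokine, Jdp2 (r = 0.97), a transcription factor, and Gbp5 (r = 0.97), a guanylate binding protein linked to inflammasomes. Without the LPS 3 h pair, over 18 libraries, these correlations were 0.94, 0.94 and 0.93. Gbp5 reached 1871 CPM in crel-/- and 844 CPM in knock-in cells.

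Casp1 (ENSMUSG00000025888.5, mm10, chromosome 9, 5298517 to 5307265, plus strand) lies next to Casp4 on the same strand. It correlated with Casp4 at 0.85 in log2 CPM over the 20 libraries, and at 0.62 without the LPS 3 h pair. In crel-/- cells its lowest, median and highest levels were 8.61, 11.1 and 66.2 CPM, and in the knock-in they were 5.62, 9.58 and 44.9 CPM. The highest of each genotype was LPS at 3 h. Without that pair the ranges were 8.61 to 19.6 CPM and 5.62 to 11.05 CPM, which overlapped. Within pairs the knock-in was lower in 10 of 10, by a fitted log2 difference of -0.36 (SE 0.09, adjusted p 0.011 by edgeR's quasi-likelihood test). The macrophage marker Lyz2 was lower in 10 of 10 pairs as well, by -0.49 (SE 0.04, adjusted p 5.4e-06 in the same test). Of the 16 macrophage markers, 3 were called lower, Lyz2 among them, and 0 higher, beside 7.81% and 7.99% of all genes. The median difference of the 16 was -0.11, and the part of these markers in the Casp1 difference was not tested. The ratio of knock-in to crel-/- was furthest from equality under TNF at 3 h, at 0.529 (95% counting interval 0.416 to 0.667), with 19.6 CPM in crel-/- and 10.4 CPM in knock-in cells. Over the 7 pairs at 0, 0.5 and 1 h alone, an alternative added after seeing the data, the Casp1 difference was -0.22 with an adjusted p of 0.091 and was not called.

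Ripk3 (ENSMUSG00000022221.11, mm10, chromosome 14, 55784996 to 55788857, minus strand), the kinase that activates MLKL, differed in the other direction. Its lowest, median and highest levels were 19.5, 24.2 and 29.5 CPM in crel-/- cells and 25.2, 30.1 and 39.1 CPM in the knock-in, so the ranges overlapped while the knock-in was higher in 10 of 10 pairs. The fitted log2 difference was 0.37 (SE 0.06, adjusted p 0.0016 by edgeR's quasi-likelihood test). The difference was present at 0 h, with 20.8 CPM in crel-/- and 29.2 CPM in knock-in cells, a ratio of 1.40 (95% counting interval 1.19 to 1.66). It was widest at LPS 3 h, with a ratio of 1.58 (1.31 to 1.91), and narrowest at IL-1b 3 h, with a ratio of 1.01 (0.866 to 1.18). Besides IL-1b 3 h, the interval included equality at LPS 1 h (0.941 to 1.32), TNF 1 h (0.999 to 1.42) and TNF 3 h (0.977 to 1.36). Within the 3 h pairs Ripk3 was not called (0.27, SE 0.11, adjusted p 0.12 by edgeR's quasi-likelihood test). The genes most like Ripk3 were S100a6 (r = 0.83), Pkm (r = 0.82) and Thy1 (r = 0.82), the last of which is a fibroblast marker of the list used here. These were the weakest of the best correlations of any of the 7 genes.

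Casp8 (ENSMUSG00000026029.12, mm10, chromosome 1, 58795374 to 58847503, plus strand), the initiator caspase of death receptors, had a fitted log2 difference of -0.09 (SE 0.05, adjusted p 0.28). For Ripk1 (ENSMUSG00000021408.12, mm10, chromosome 13, 34002363 to 34035170, plus strand), the kinase at the fork between survival and death, the value was 0.01 (SE 0.04, adjusted p 0.95). For Mlkl (ENSMUSG00000012519.12, mm10, chromosome 8, 111311797 to 111338177, minus strand) it was 0.18 (SE 0.13, adjusted p 0.42), all by edgeR's quasi-likelihood test. Ratios of knock-in to crel-/- over the 10 pairs lay between 0.736 and 1.11 for Casp8, between 0.850 and 1.13 for Ripk1 and between 0.603 and 1.97 for Mlkl. Mlkl was higher in the knock-in in 8 of 10 pairs, and the 2 exceptions were IL-1b at 3 h, with a ratio of 0.603 (95% counting interval 0.477 to 0.761), and TNF at 3 h, with a ratio of 0.760 (0.565 to 1.02). Over the 7 pairs at 0, 0.5 and 1 h alone, Mlkl was called higher in the knock-in, by 0.40 (adjusted p 0.011). That alternative was added after seeing the data and leaves out the 2 exceptions, so it is no independent support for a difference. Part of Ripk1 overlaps other genes: 241 exonic bases lie opposite exons of Serpinb6a, which had 1759 to 3110 counts, and 2108 lie within exons of Gm17084 on the same strand, which had 0 to 6 counts. The strand setting of the counting is not given in the sources used here, so how such reads were shared out is unknown.

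**Figure D3:**
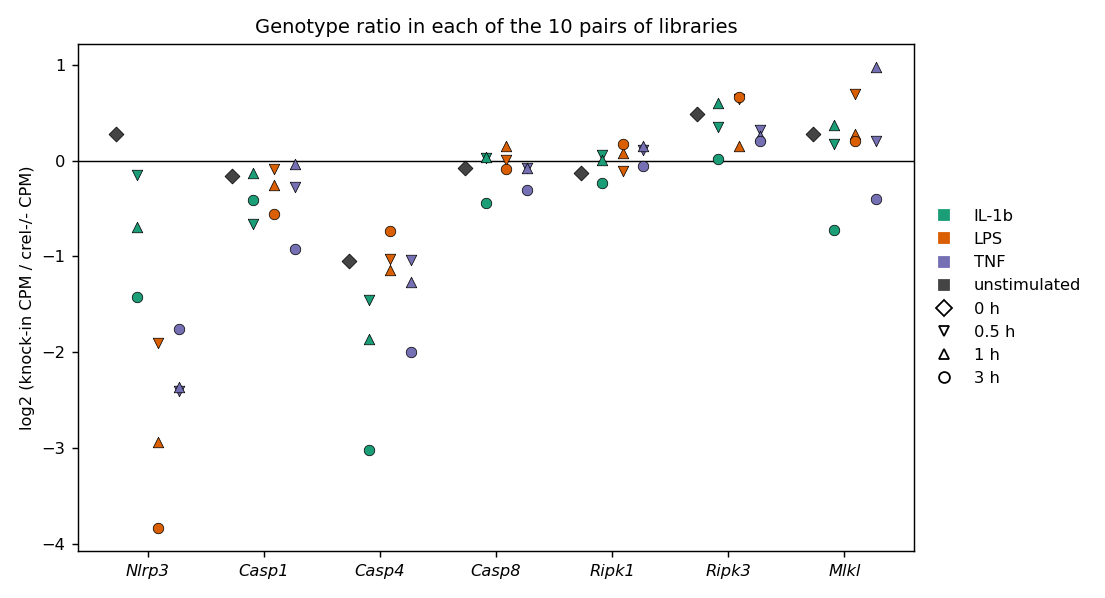
Log2 ratio of knock-in to crel-/- CPM for each of the 7 genes in each of the 10 pairs of libraries, with agents by colour and times by symbol. All Casp4 and Casp1 points lie under 0 and all Ripk3 points above it, while Nlrp3 reaches 14.3-fold lower in the knock-in at LPS 3 h.

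In the 3 pairs at 3 h alone, taken from a model with a genotype term of its own at 3 h, 4 of the 7 genes were called lower and 0 higher in the knock-in, beside 9.15% lower and 9.03% higher over all genes. The log2 differences were -2.57 for Nlrp3 (SE 0.61, adjusted p 0.020), -1.68 for Casp4 (SE 0.33, adjusted p 0.0079), -0.63 for Casp1 (SE 0.12, adjusted p 0.0016) and -0.27 for Casp8 (SE 0.07, adjusted p 0.013), by edgeR's quasi-likelihood test. Casp8 levels at 3 h were 58.9 and 43.4 CPM under IL-1b, 94.8 and 89.4 CPM under LPS and 63.6 and 51.5 CPM under TNF, in crel-/- and knock-in cells in that order. Casp8 was no longer called without the IL-1b pair (-0.19, adjusted p 0.11) or without the TNF pair (-0.26, adjusted p 0.055). Nlrp3 was not called without the LPS pair (-1.67, adjusted p 0.15), and Casp4 was not called by limma-voom (-1.42, adjusted p 0.078).

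The difference between the genotype effect at 3 h and that at 0 to 1 h was tested as an interaction. It was called for 0 of the 7 genes, with 5.7% of all genes called and a smallest adjusted p among the 7 of 0.084, for Casp8. At an unadjusted p under 0.05 there were 3 of the 7, beside 18.9% of all genes. Without the LPS 3 h pair the interaction was called for 3 of them, all lower: Casp4 by -1.20 (adjusted p 0.014), Mlkl by -0.99 (adjusted p 0.010) and Casp8 by -0.37 (adjusted p 0.025), again by edgeR's quasi-likelihood test. Over the 10 fits that each left out 1 pair, 306 to 490 of all 14023 genes were called higher and 289 to 463 lower. The sign of the Casp4 value turned to 0.16 without the IL-1b 3 h pair, and that of Nlrp3 to 0.34 without the LPS 3 h pair.

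The second question was how the genes responded to each agent. The responses were taken as levels at a time against 0 h with both genotypes in 1 model, so that 2 libraries stand on each side. A response that differs between genotypes enters the spread of this model. At 0.5 h, 0 of the 7 genes were called under any agent, where the share of all genes called was 11.1% for IL-1b, 6.02% for LPS and 0.392% for TNF. Nlrp3 had fitted log2 fold changes of 3.10 under LPS (SE 0.91, adjusted p 0.080) and 3.27 under TNF (SE 0.89, adjusted p 0.27) at that time in edgeR, and DESeq2 called both, at adjusted p values of 0.026 and 0.049. At an unadjusted p under 0.05 in edgeR there were 2 of the 7 for IL-1b, 1 for LPS and 1 for TNF at 0.5 h, beside 25%, 20.8% and 6.19% of all genes.

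At 1 h, 2 of the 7 were called higher under IL-1b, beside 8.38% of all genes, and none was called lower, beside 7.12%. They were Casp4, with a log2 fold change of 1.94 (SE 0.55, adjusted p 0.038), and Mlkl, with 0.98 (SE 0.30, adjusted p 0.047), by edgeR's quasi-likelihood test. With no filter on low counts both missed the threshold (adjusted p 0.097 and 0.11), and limma-voom did not call Casp4 (0.096). Under LPS at 1 h, 1 of the 7 was called higher, beside 7.58% of all genes higher and 6.08% lower: Nlrp3, at 4.90 (SE 0.88, adjusted p 0.0054). DESeq2 also called Casp4, at 1.61 (adjusted p 0.0051). Under TNF at 1 h, 0 of the 7 were called by edgeR, beside 4.03% of all genes, with 2 at an unadjusted p under 0.05, beside 16.6% of all genes. Those with the largest changes were Nlrp3 at 3.50 (adjusted p 0.062) and Casp4 at 1.90 (adjusted p 0.094), and DESeq2 called both (adjusted p 0.0070 and 0.0013), while limma-voom called Nlrp3 (0.048).

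At 3 h of LPS, 6 of the 7 genes were called higher, beside 29.2% of all genes called higher and 28.3% lower. The median log2 fold change of the 7 was 2.42, beside -0.01 over all genes. In edgeR's quasi-likelihood test the fold changes were 5.89 for Casp4 (SE 0.50, adjusted p 2.8e-06), 5.10 for Nlrp3 (SE 0.88, adjusted p 7.0e-04) and 4.53 for Mlkl (SE 0.29, adjusted p 8.4e-08). Casp1 rose by 2.42 (SE 0.18, adjusted p 1.05e-07), Ripk1 by 1.24 (SE 0.09, adjusted p 1.4e-07) and Casp8 by 1.22 (SE 0.11, adjusted p 1.0e-06). Ripk3 was the exception, at 0.35 (SE 0.15, adjusted p 0.053), with 24.8 CPM in crel-/- and 39.1 CPM in knock-in cells at 3 h. It was on the other side of the threshold with RLE scaling (adjusted p 0.038), with the stricter filter (0.0496), without the crel-/- LPS 3 h library (0.021) and with a 3 h genotype term (0.040). Upper quartile scaling moved the median of all genes in this comparison from -0.01 to -0.29 and changed the split of calls from 4099 higher and 3962 lower to 2602 and 6403. The 6 genes were called higher under that scaling too.

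All 6 genes called at LPS 3 h rose over 0 h in both genotypes. Casp1 rose 6.13-fold (95% counting interval 5.05 to 7.49) in crel-/- and 4.64-fold (3.75 to 5.78) in knock-in cells. For Nlrp3 these folds were 105 (76.5 to 148) and 6.06 (4.35 to 8.59), and those of Casp4 are given above. Mlkl stood at 5.89 CPM in unstimulated crel-/- cells, at 7.79 and 9.26 CPM after LPS for 0.5 and 1 h, and at 140 CPM at 3 h. In the knock-in it stood at 7.13, 12.6, 11.2 and 161 CPM. The rise thus fell almost wholly between 1 and 3 h in both genotypes, at 23.8-fold (95% counting interval 18.7 to 30.6) over 0 h in crel-/- and 22.6-fold (18.1 to 28.6) in knock-in cells. Ripk1 rose from 58.7 to 125 CPM in crel-/- cells and from 53.8 to 140 CPM in the knock-in. Casp8 rose from 40.7 to 94.8 CPM and from 38.6 to 89.4 CPM.

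Outside the LPS 3 h pair, Ripk1 spanned 49.8 to 72.1 CPM in crel-/- cells, beside 52.8 to 64.4 CPM in the knock-in. Its RefSeq window chr13:34002624-34002923 is printed because it is the 1 window of the 10 that holds a match to the interferon-stimulated response element, written GAAANNGAAA, which 3.44% of all windows hold. The match lies at -5 to 5 around the start site and overlaps a match to the interferon gamma activated site, written TTCNNNGAA, at -11 to -3. A further match to the latter lies at -108 to -100, and 8.30% of all windows hold at least 1. The sequence runs 5′ to 3′ on the plus strand, with these matches in capitals.
Ripk1: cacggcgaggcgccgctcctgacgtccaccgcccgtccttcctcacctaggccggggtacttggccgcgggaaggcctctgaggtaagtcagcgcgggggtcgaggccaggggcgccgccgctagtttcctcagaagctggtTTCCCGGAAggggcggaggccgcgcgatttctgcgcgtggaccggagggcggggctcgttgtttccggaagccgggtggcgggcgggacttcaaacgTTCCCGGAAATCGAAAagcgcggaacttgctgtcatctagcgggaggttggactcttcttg
No other window of the 7 genes, Mlkl included, holds either of these motifs. That says only that these letters are not in those 300 bases.

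**Figure D4:**
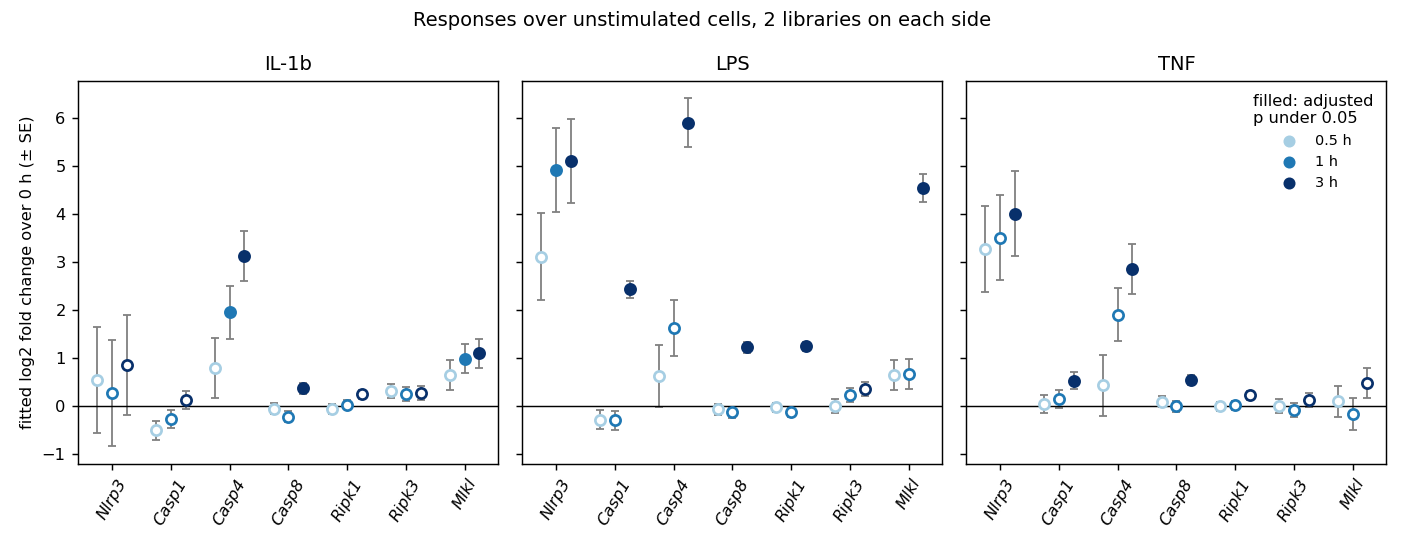
Fitted log2 fold change over 0 h with its SE for each of the 7 genes under IL-1b, LPS and TNF at 0.5, 1 and 3 h, each from 4 libraries, and filled points for an adjusted p under 0.05. Filled points lie above 0 in every panel, and 6 of the 7 genes have one under LPS at 3 h, with Casp4 highest at 5.89.

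TNF at 3 h raised 4 of the 7, beside 18.7% of all genes called higher, and lowered none, beside 16% lower. They were Nlrp3 at 3.998 (SE 0.89, adjusted p 0.0074), Casp4 at 2.85 (SE 0.53, adjusted p 0.0024), Casp8 at 0.54 (SE 0.11, adjusted p 0.0032) and Casp1 at 0.53 (SE 0.19, adjusted p 0.041), by edgeR's quasi-likelihood test. Nlrp3 and Casp4 were not called without the crel-/- 0 h library, at 2.59 (adjusted p 0.11) and 2.52 (adjusted p 0.055). Casp1 was not called by DESeq2 (adjusted p 0.058), nor without the crel-/- TNF 3 h library (0.16, adjusted p 0.59), and lost its call in 5 further alternatives, those with upper quartile scaling, no filter, either 0 h library left out or the libraries of the 2 conditions alone.

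IL-1b at 3 h raised 3 of the 7, beside 16.9% of all genes called higher, and lowered none, beside 13.8% lower. They were Casp4 at 3.12 (SE 0.52, adjusted p 0.0017), Mlkl at 1.09 (SE 0.30, adjusted p 0.018) and Casp8 at 0.36 (SE 0.11, adjusted p 0.030) in edgeR's quasi-likelihood test. Nlrp3, at 0.85 (SE 1.05, adjusted p 0.57), was not called. Mlkl and Casp8 lost their calls when either 0 h library was left out, and also when the crel-/- library of IL-1b at 3 h was, where they stood at 0.55 (adjusted p 0.21) and 0.15 (adjusted p 0.42). Casp8 was not called with upper quartile scaling either (0.25, adjusted p 0.088). Without the knock-in library of IL-1b at 3 h, Ripk1 (0.37, adjusted p 0.012) and Ripk3 (0.46, adjusted p 0.037) were called as well. With only the 4 libraries of the 2 conditions in the fit, none of the 3 was called, and Casp4 stood at 3.00 (adjusted p 0.11). Mlkl at 3 h of IL-1b was 17.3 CPM in crel-/- and 10.4 CPM in knock-in cells. In knock-in cells the highest Mlkl level under IL-1b was instead at 1 h, 14.5 CPM.

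The agents were also compared with each other at 3 h. LPS exceeded IL-1b for 6 of the 7 genes, beside 23.8% of all genes called higher and 23.4% lower. It exceeded TNF for 5 of the 7, beside 24.3% higher and 24% lower. Ripk3 was called in neither comparison, and Nlrp3 did not differ beyond the spread between LPS and TNF (1.10, SE 0.65, adjusted p 0.19). Without the crel-/- LPS 3 h library this Nlrp3 value was -0.18, and without the knock-in LPS 3 h library it was 1.79 (adjusted p 0.046). Mlkl was the gene in which LPS stood furthest above TNF, by 4.06 (SE 0.28, adjusted p 2.2e-07), and Nlrp3 the one in which it stood furthest above IL-1b, by 4.25 (SE 0.80, adjusted p 0.0017), by edgeR's quasi-likelihood test.

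IL-1b and TNF differed at 3 h for 1 of the 7 genes, beside 7.93% of all genes called lower under IL-1b and 7.89% higher. Nlrp3 was lower under IL-1b, by -3.15 (SE 0.80, adjusted p 0.027 in edgeR's quasi-likelihood test). It kept its direction but lost the call without any 1 of the 4 libraries compared, at adjusted p values of 0.059 to 0.16, and with no filter, at 0.054. Leaving out 1 library also added calls: Casp8 (-0.38, adjusted p 0.038) without the crel-/- IL-1b library, Mlkl (1.08, adjusted p 0.016) without the knock-in IL-1b library and Casp1 (-0.68, adjusted p 0.037) without the knock-in TNF library. Casp4, by contrast, had an IL-1b minus TNF value of 0.27 (SE 0.40, adjusted p 0.69), and its crel-/- level was 52.9 CPM under IL-1b and 35.4 CPM under TNF.

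The 7 genes did not move as 1 block across the 20 libraries. Casp1, Casp8, Ripk1 and Mlkl had pairwise correlations between 0.79 and 0.93 in log2 CPM, but without the LPS 3 h pair those of Mlkl with the other 3 were -0.20, 0.09 and 0.30. Casp4 correlated with Casp1, Casp8, Ripk1 and Mlkl at 0.85, 0.83, 0.82 and 0.75. Without the LPS 3 h pair these Casp4 values were 0.62, 0.56, 0.56 and 0.24. Nlrp3 correlated at most 0.51 with any other of the 7, with Casp4. Ripk3 correlated at most 0.46, with Mlkl, and this was 0.67 without the LPS 3 h pair. The genes most like the others over the 20 libraries were Dse, Rdx and Sptlc2 for Casp1, Etv6, Xpo6 and Cpsf2 for Casp8, D17Wsu92e, Ppa1 and Daxx for Ripk1 and Parp4, Vwa5a and Tut7 for Mlkl, all with r between 0.97 and 0.99. Without the LPS 3 h pair these lay between 0.81 and 0.95.

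Other genes of the same pathways were described by lists, which were also chosen with earlier results of these data known. Of 30 further inflammasome and pyroptosis genes, 29 were found in the table and 24 passed the filter. In the knock-in 8 of the 24 were called lower and 1 higher, beside 7.81% and 7.99% of all genes, with a median log2 difference of -0.25. The largest falls were in the cytokine precursors Il1a, by -5.02 (SE 0.39, adjusted p 7.0e-06, 21 counts in knock-in against 655 in crel-/- libraries), and Il1b, by -3.44 (SE 0.46, adjusted p 7.8e-04), in edgeR's quasi-likelihood test. Il1a was lower in 7 of 10 pairs, and most of its counts lay in the LPS pairs at 1 h (148) and 3 h (483). The 1 gene called higher was Nek7, which encodes an NLRP3-binding kinase, at 0.16 (SE 0.04, adjusted p 0.021). LPS at 3 h raised 12 and lowered 5 of the 24, beside 29.2% and 28.3% of all genes, with a median of 0.69. Gbp5 rose by 10.97 and Il1b by 10.1 on the log2 scale, while Card9 was at -2.69 and P2rx7, the ATP-gated channel upstream of NLRP3, at -2.63. In the same comparison 9 of the 16 macrophage markers were called lower and 3 higher, beside 28.3% and 29.2% of all genes. Among them Cx3cr1 was at -3.72 and Ptprc at 1.36, and the part of these markers in the values of the list was not tested. TNF at 3 h raised 6 and lowered 8 of the 24, beside 18.7% and 16% of all genes, with Gbp5 (5.84) and Il1b (5.57) highest and Nlrp1b (-1.87) and Gsdme (-1.51) lowest. IL-1b raised 4 and lowered 3, shares close to the 16.9% and 13.8% of all genes, with Gbp5 (5.59) and Gbp2 (3.25) highest and Gsdme (-1.29) and P2rx7 (-0.78) lowest.

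Of 36 genes of RIP kinase and TNF receptor signalling other than the 7, 35 passed the filter. In the knock-in 10 were called lower and 1 higher, beside 7.81% and 7.99% of all genes, with a median of -0.11. Tnfaip3, the ubiquitin-editing inhibitor A20, was lowest at -3.93 (SE 0.49, adjusted p 5.2e-04), followed by the death receptor Fas at -1.39 (SE 0.33, adjusted p 0.018), and Ticam1, the TLR3 and TLR4 adaptor TRIF, was higher at 0.31 (SE 0.08, adjusted p 0.018) in edgeR's quasi-likelihood test. LPS at 3 h raised 25 and lowered 3 of the 35, beside 29.2% and 28.3% of all genes, with Tnfsf10 (8.78), which encodes the death ligand TRAIL, and Tnfaip3 (6.24) highest and the adaptors Fadd (-1.20) and Tradd (-0.57) lowest. TNF raised 13, led by Tnfaip3 (3.73) and Birc3 (2.55), and lowered 1, Ikbkg (-0.25), beside 18.7% higher and 16% lower over all genes. IL-1b raised 12, led by Fas (2.29) and Birc3 (1.71), and lowered 1, Xiap (-0.30), beside 16.9% and 13.8%.

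Of 28 executioner and mitochondrial apoptosis genes, 25 passed the filter. In the knock-in 2 were called lower and 2 higher, shares close to the 7.81% and 7.99% of all genes, with a median of 0.01. Bcl2a1d (-1.67) and Bid (-0.80) were lower, and Pmaip1 (0.40) and Bax (0.12) were higher. Bcl2a1d has near-identical copies, so its counts are uncertain, and it had at most 7.97 CPM. LPS at 3 h raised 14 and lowered 6, beside 29.2% and 28.3% of all genes, with Bcl2a1d (4.67) highest and the BH3-only gene Bmf (-4.51) and Casp9 (-2.06) lowest. TNF raised 7 and lowered 7, beside 18.7% and 16% of all genes, and IL-1b raised 3 and lowered 2, beside 16.9% and 13.8%.

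The transcription factor target lists, chosen with the same knowledge, give the setting of these values. The list of 16 NF-kB targets had 13 called lower and 0 higher in the knock-in, beside 7.81% and 7.99% of all genes, with a median of -1.65. LPS, TNF and IL-1b at 3 h raised 16, 13 and 11 of them, beside 29.2%, 18.7% and 16.9% of all genes. Of 20 interferon-stimulated genes, 2 were called lower and 0 higher in the knock-in, with a median of -0.32. The share called lower was close to the 7.81% of all genes, and 7.99% of all genes were called higher. LPS at 3 h raised 20 of 20, beside 29.2% of all genes, with a median of 5.30. IL-1b at 3 h raised 8, beside 16.9%, and TNF at 3 h raised 7, beside 18.7%. None of the 20 was called lower under LPS, TNF or IL-1b, beside 28.3%, 16% and 13.8% of all genes. Ifnb1 reached 40.1 CPM in crel-/- and 118 CPM in knock-in cells, and its median over the libraries of each genotype was below the 3-count floor. Nlrp3 and Casp4, at -2.10 and -1.51, lay on the same side as the medians of both lists in the genotype comparison. The Mlkl difference was not called, and its sign was not settled. It was 0.18 over the 10 pairs (adjusted p 0.42) and -0.18 within the 3 h pairs (adjusted p 0.49), both by edgeR's quasi-likelihood test. The LPS 3 h change of Mlkl, 4.53, was between the medians of the NF-kB targets, 3.87, and of the interferon-stimulated genes.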

How the data were processed

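Poly(A) RNA was sequenced in 20 stranded libraries as single-end reads, per the labels' protocols. The authors deposited whole-number counts per gene, not normalized, with the summed exon length of each gene per the file headers. Per the submitters' processing notes, the build was mm10 and the tools were featureCounts 1.5.1, STAR, cutadapt 1.12 and DESeq2. How strand and multiply matching reads were treated, and the annotation release, are not given in the sources consulted.

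Ensembl identifiers were matched to symbols for 45143 of 45706 genes (98.8%). Genes that reached 1 CPM in at least 2 libraries (14023 genes, 99.9% of counts) were tested with edgeR 4.0.16 in R 4.3.3 (TMM, robust quasi-likelihood F test, Benjamini-Hochberg, threshold 0.05). The models held condition and genotype (9 residual degrees of freedom), with a genotype term at 3 h (8), per agent (6) or at LPS 3 h (7). SE was derived from the fold change and the F statistic (log2 fold change over root F). The common biological coefficient of variation was 10.6%. Ratios of single libraries carry exact 95% counting intervals, and correlations use log2 CPM with a prior count of 2. Alternatives were DESeq2 1.42.0, limma-voom (limma 3.58.1), RLE and upper quartile scaling, other filters and leaving out pairs or libraries. The scripts were tested on simulated counts.

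The members and lists were chosen with earlier results of these data known. The genes named were the 7 members, Rel and Rela, the 2 list genes furthest in each direction among those called in a comparison described, and the 3 genes most correlated with each member. A list gene that this rule would name is not reported here. Clec4e, Il1b, Gbp5 and Ifnb1 levels and the comparisons per agent and at LPS 3 h were added after the levels had been seen. Promoter windows came from RefSeq tables on GRCm38.p6.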

Additional observations from a re-analysis of the deposited data

Results flagged for a closer look

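Casp4 stood out because its genotype difference at LPS 3 h was not the same as that at IL-1b and TNF 3 h. In the model with a genotype term per agent over all times, its difference was not called between any of the agents. The difference (knock-in minus crel-/-, negative in each pair) was smaller in size at LPS 3 h, lying closer to 0 than that at IL-1b and TNF 3 h by 1.79 log2 units (SE 0.29, adjusted p 0.0142 by edgeR's quasi-likelihood test over all genes). The knock-in was lower in each of the 3 pairs. Values without the IL-1b 3 h pair and without the TNF 3 h pair were 1.27 and 2.27, and Casp4 was called in both cases. Adjusted p values over all alternatives ranged from 7.4e-05 to 0.035. The comparison was chosen after the levels had been seen, and the LPS 3 h term rests on 1 pair of libraries, which were also the libraries with the lowest scaling factors. Their part in the result was not tested.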

How the results depend on the processing

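Of 1135 values of the 7 genes under an alternative, 1055 kept their direction and side of the threshold, 32 lost the call, 21 gained it and 27 changed sign. None of those 27 belonged to a called result. Nlrp3 (-2.43 to -1.75), Casp4 (-1.69 to -1.28) and Ripk3 (0.33 to 0.41) kept their calls over the 10 pairs in every alternative run of that comparison, and 6 genes kept their LPS 3 h calls. The labels carry no replicate numbers, and the genotype model holds each matched pair as a condition, so it is already a comparison within pairs.

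Signs changed with upper quartile scaling for Ripk1 at IL-1b 1 h (-0.039) and TNF 1 h (-0.054), for Casp1 (-0.0050) and Ripk3 (-0.039) at TNF 0.5 h, and for Ripk3 at TNF 3 h (-0.014) and LPS against IL-1b (-0.090). They changed with limma-voom for Ripk3 at TNF 0.5 h (-0.0012) and with no filter for Ripk1 at TNF 1 h (-5.7e-04). Leaving out a pair gave ranges of -0.018 to 0.034 for Ripk1 in the genotype difference and, at 3 h against 0 to 1 h, of -1.22 to 0.34 for Nlrp3, -1.20 to 0.16 for Casp4, -0.17 to 0.038 for Ripk1 and -0.29 to 0.014 for Ripk3. Leaving out a library gave, at IL-1b 3 h, -0.57 to 1.93 for Nlrp3 and -4.4e-04 to 0.22 for Casp1. In the comparisons of agents it gave -0.11 to 0.28 for Ripk3 (LPS against IL-1b), -0.18 to 1.79 for Nlrp3 (LPS against TNF) and, for IL-1b against TNF, -0.89 to 0.83 for Casp4, -0.38 to 0.0088 for Casp8, -0.11 to 0.15 for Ripk1 and -0.051 to 0.33 for Ripk3.

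Counts of genes moved by over 1.5 times as follows for the comparisons planned. With upper quartile scaling, LPS 3 h had 2602 higher and 6403 lower, TNF 3 h 1604 and 3576 (from 2618 and 2243), LPS against IL-1b 2206 higher (from 3337), and TNF 1 h 398 lower (from 249). The median of all genes was then -0.29 at LPS 3 h, -0.14 at TNF 3 h, -0.18 for LPS against IL-1b and -0.15 for LPS against TNF, and within 0.1 of 0 elsewhere. The share of calls that were higher fell from 50.8% to 28.9% at LPS 3 h, and also by over 10 points at TNF 3 h (31%), IL-1b 3 h (36.7%), IL-1b 1 h (40.2%), LPS 1 h (43.6%), TNF 1 h (40.6%), LPS against IL-1b (31.6%) and LPS against TNF (36.2%). TNF 0.5 h had 140 higher and 23 lower with DESeq2 (from 44 and 11) and 27 higher with no filter. With only the libraries of the conditions compared, which leaves 1 residual degree of freedom, there were 160 higher and 100 lower at IL-1b 3 h, 2411 lower at LPS 3 h, and 1026 higher and 755 lower at TNF 3 h. Leaving out a library gave 913 to 2687 higher and 731 to 2076 lower at IL-1b 3 h, 1335 to 1970 and 1104 to 1609 at TNF 3 h, and 534 to 1189 and 549 to 1176 for IL-1b against TNF. Of the comparisons added later, that of the genotype difference at LPS 3 h with IL-1b and TNF 3 h had 66 higher with limma-voom and 84 with no filter (from 38), and 236 higher and 132 lower (from 56) without the TNF 3 h pair. That of LPS with IL-1b had 20 higher and 3 lower with DESeq2, 3 higher with limma-voom, and 2 higher and 1 lower with no filter (from 0 and 0). The remaining library of such a condition is assumed to vary like the others. Beyond the fewer libraries in these fits, the cause was not tested. Casp4 had the fewest counts of the 7, 22 in the unstimulated knock-in, which limits its ratio there.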
